A study of Mus musculus with 2 samples.

Results

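Cadherins and protocadherins are calcium-dependent adhesion proteins of the cell surface, and their expression was followed here across the cells of the mouse lateral hypothalamic area, a region known for neurons that govern feeding, arousal and motivated behaviour. All gene symbols of the deposited gene lists that begin with Cdh and a digit, or with Pcdh, were taken, and those with 20 or more unique molecular identifiers (UMIs, the counted transcript molecules) over both libraries were kept. These were 62 of 93 such genes, out of 28692 genes listed and 15535 that reach the same minimum. The nearest genes inside the limit were Pcdha12 with 21 UMIs, Cdh6 with 22 and Pcdhgb5 with 24, and the nearest outside were Pcdhga6 with 19, Pcdha4 with 16 and Pcdhga10 with 16.

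Tissue was microdissected from brain slices of C57BL/6 mice at postnatal day 30, dissociated mechanically and run on the 10x Chromium platform (v2 chemistry), which counts the 3' ends of polyadenylated transcripts cell by cell. There were 2 libraries, each from pooled littermates without further treatment in the labels: LHA male from 3 animals and LHA female from 2 animals. Since each label has 1 library of pooled animals, no spread between animals can be measured. The libraries held 3439 and 3793 barcodes, of which 18 were shared, and 23151801 and 27437142 UMIs. In each pair of values the first is from the library labelled male. Genes of the sex chromosomes contradicted the labels: Xist had 20641 and 30 UMIs and the Y-linked Ddx3y had 0 and 4524, so libraries are named by their labels only. After filtering, 2039 and 2265 cells fell into clusters named as neurons from their markers. All 7 neuron markers were found there, each in at least 62.3% and 63.4% of cells.

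Classical cadherins bind their like on a neighbouring cell and are tied inside the cell to catenins and actin, and the type I and type II subfamilies are known for matching sets of neurons and synapses. The non-clustered delta-protocadherins bind weakly, and several recruit the WAVE complex, which builds branched actin. The clustered alpha, beta and gamma protocadherins are chosen by single neurons from a tandem array on 1 chromosome and give a cell its own surface identity.

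Of the 62 genes, 4 were type I cadherins, 13 type II cadherins, 2 other cadherins (Cdh13 and Cdh23), 4 delta-1 and 5 delta-2 protocadherins, and 3 other protocadherins (Pcdh12, Pcdh15 and Pcdh20). The other 31 were clustered protocadherins: 20 of the beta, 8 of the gamma and 3 of the alpha cluster. The 9 delta-protocadherins held most molecules, with 37.7% of the 108197 member UMIs in the delta-2 and 29.1% in the delta-1 group. The beta, gamma and alpha clusters held 3.95%, 1.85% and 0.186%. All alpha and gamma members, and 2 of the beta cluster, share their last exon with another member, 13 in all, so 3' reads cannot always be assigned to 1 of them. Among the 31 non-clustered members, 12 overlap an antisense gene. Whether strand was used in counting is not stated, and without it reads of such a pair cannot be told apart. Levels are CPM, the UMIs summed over a group of cells and scaled to a common total. They are not divided by transcript length, so an order between genes is one of captured 3' ends.

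The promoters of 2 members that the neuron results turn on are shown first. Pcdh8 is a protocadherin also called arcadlin, whose product is known to be induced by activity and to draw N-cadherin off the synapse, and it was high in neurons of the peptide gene Pmch. Its gene (ENSMUSG00000036422) lies on chromosome 14, 79766775 to 79771312, - strand. Cdh20 is a type II cadherin that was high in neurons of the peptide gene Hcrt, and its gene (ENSMUSG00000050840) lies on chromosome 1, 104768529 to 104995481, + strand. Both positions are those of GENCODE M21. The 250 bases before each annotated start are given 5' to 3' from RefSeq on GRCm38.p6: Pcdh8 at chr14:79771313-79771562, - strand, and Cdh20 at chr1:104768270-104768519, + strand. Capitals mark every match, on either strand, to any of 4 motifs that were searched, namely TAATTA (a homeobox motif), CANNTG (an E-box), CGCT (a core known from clustered protocadherin promoters) and TATAAA (the box of many core promoters).
Pcdh8: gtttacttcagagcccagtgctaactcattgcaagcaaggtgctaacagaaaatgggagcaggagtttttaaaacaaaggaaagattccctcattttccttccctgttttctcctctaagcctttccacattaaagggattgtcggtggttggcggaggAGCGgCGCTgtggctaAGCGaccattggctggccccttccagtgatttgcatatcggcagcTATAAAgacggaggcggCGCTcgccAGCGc
Cdh20: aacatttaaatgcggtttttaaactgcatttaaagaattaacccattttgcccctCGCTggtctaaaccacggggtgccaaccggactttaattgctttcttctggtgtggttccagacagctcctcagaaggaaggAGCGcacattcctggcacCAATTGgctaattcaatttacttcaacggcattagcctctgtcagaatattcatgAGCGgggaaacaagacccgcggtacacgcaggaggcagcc

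The Pcdh8 window held 1 match to TATAAA and 5 to CGCT, and none to the other motifs. The Cdh20 window held 1 match to CANNTG and 3 to CGCT. Their GC content was 51.2% and 47.6%. RefSeq promoters were found for 21 of the 62 members, 24 windows in all and none of the clustered genes. TATAAA occurred in 8.33% of these windows and in 12.4% of the 32851 windows of the table, CANNTG in 54.2% and 66.2%, TAATTA in 4.17% and 4.84%, and CGCT in 87.5% and 55.7%. A match is a description of the letters only.

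In neurons as a whole the delta-protocadherins led. Pcdh17, a delta-2 protocadherin known from axon extension and presynaptic assembly, had 482 CPM in each library and was found in 84.8% and 86.9% of neurons. Pcdh9 followed with 224 and 228 CPM, Pcdh10 with 225 and 213, and Pcdh7 with 196 and 208. The order of Pcdh9 and Pcdh10 differed between the libraries. N-cadherin, Cdh2, the main classical cadherin of central synapses, came next with 153 and 157 CPM, close to Pcdh19 with 150 and 158, a delta-2 gene of the X chromosome known from an epilepsy. Pcdh11x had 116 and 110 CPM, and Cdh13, T-cadherin, which is held by a lipid anchor and lacks a catenin-binding tail, had 95.4 and 90.9. Pcdh15 followed with 60.7 and 68.5 and Pcdh8 with 66.6 and 56.2. Among the 30 members with 300 or more neuronal UMIs, the ratio of the library labelled male to that labelled female ran from 0.756 for Pcdh20 to 1.25 for Pcdhgc4, with a median of 0.978. There is 1 library per label, so these ratios carry no test.

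Outside neurons, single members stood out by class, as a description without a test because classes are clusters of these cells. Cells were clustered with all cadherin and protocadherin genes left out. In endothelial-like cells, Cdh5, the VE-cadherin of endothelial junctions, reached 432 CPM (95% Poisson interval 381 to 488) and 413 CPM (366 to 464), against a median of 2.72 CPM over the other classes. Fibroblast-like cells had 94.0 and 89.0 CPM of it, from 11 and 12 UMIs. Endothelial markers summed to 889 and 734 CPM there, with 4 and 1 of 7 at 0, and their part in this value was not tested. Pcdh12, also known as an endothelial protocadherin, had few counts, with 36 UMIs over all kept cells of both libraries. It was at 16.6 and 33.7 CPM in endothelial-like cells and had 0 and 1 UMIs in all neurons. Cdh1, E-cadherin, rested on 1 cell: 23 of its 26 UMIs in the library labelled male came from a single fibroblast-like cell, and the library labelled female had 3 UMIs in all.

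The oligodendrocyte lineage held different protocadherins at each stage. In oligodendrocyte precursor-like cells Pcdh15, known best as a tip-link protein of hair cells, reached 751 CPM (630 to 888) and 815 CPM (700 to 944), compared with 52.0 and 36.4 in newly formed and 23.2 and 28.1 in mature oligodendrocyte-like cells. Pcdh11x, a delta-1 gene of the X chromosome, went the same way, with 558 and 469 CPM in precursors, 78.0 and 106 in newly formed and 41.2 and 61.2 in mature cells. Pcdh20 was also highest in precursors, at 77.3 and 59.2 CPM. These precursors' values lay above the later stages in both libraries.

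Newly formed oligodendrocyte-like cells instead were high in Pcdh17, with 838 CPM (744 to 940) and 1165 CPM (1081 to 1254), compared with 309 and 360 CPM in precursors and 98.2 and 98.8 in mature cells. Pcdh7, a delta-1 protocadherin, had the same order: 182 and 196 CPM in precursors, 370 and 401 in newly formed and 37.2 and 50.1 in mature cells. The type II cadherins Cdh20, at 116 and 87.7 CPM, and Cdh11, at 101 and 136, were highest there too. In mature oligodendrocyte-like cells 1 gene dominated: Pcdh9, at 857 CPM (822 to 892) and 984 CPM (949 to 1021), found in 95.2% and 97.7% of the cells. Cdh19, known from glia of the peripheral nerve, was at 34.2 and 43.3 CPM in these cells and at 31.0 and 27.0 in astrocyte-like cells. Astrocyte-like cells were also the highest class for Pcdh10, at 313 and 276 CPM.

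**Figure D1:**
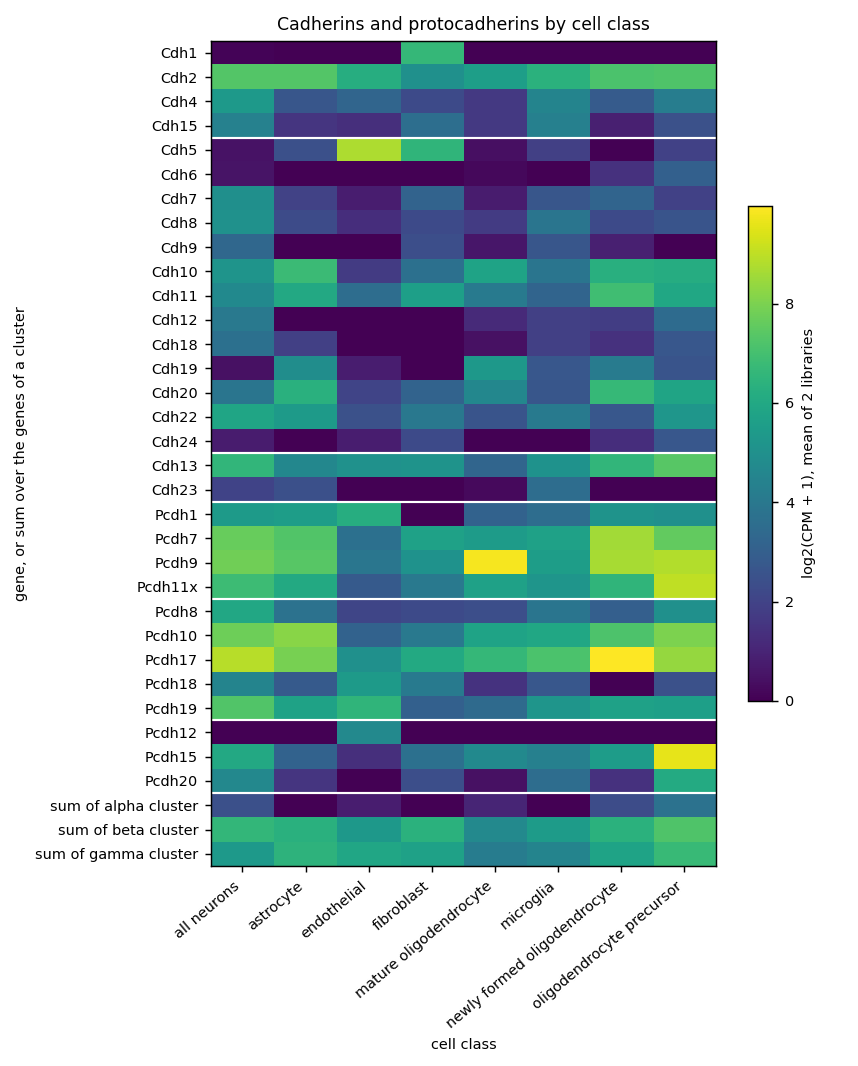
Mean CPM of 2 libraries, as log2(CPM + 1), for the 31 non-clustered members (rows, in blocks by subfamily) and for the summed alpha, beta and gamma clusters, in 8 cell classes (columns). Single bright cells mark Cdh5 in endothelial-like cells, Pcdh15 in oligodendrocyte precursors, Pcdh17 in newly formed and Pcdh9 in mature oligodendrocytes.

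Neurons in turn were at least 4 times the median of the other classes, in each library, for Cdh4, Cdh7, Cdh8, Pcdh8 and Pcdh20. For Pcdh20, though, precursors were higher. Cdh4, R-cadherin, had 37.5 and 43.7 CPM in neurons, and Cdh8, a type II cadherin known from matching of synaptic partners, had 31.0 and 33.4. The total in microglia-like cells differed between the libraries: all members together came to 284 CPM (212 to 372) in the library labelled male and 1201 CPM (1047 to 1370) in that labelled female. The 7 neuron markers moved with this, at a summed 2347 and 7964 CPM, with none at 0. Without microglia-like cells that held UMIs of Snap25, Syt1 or Stmn2, the members were at 137 CPM (73.0 to 234) and 435 CPM (232 to 744). Mural-like cells were left out, since the library labelled male had 9.

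The clustered protocadherins had low counts in every class. Alpha and gamma members share a last exon, so their values cover only reads assigned to 1 gene and may fall short of the true level. Summed over 20 genes, the beta cluster had 98.0 and 93.8 CPM in neurons, 144 and 150 in oligodendrocyte precursors and 23.2 and 26.0 in mature oligodendrocytes. The gamma cluster, over 8 genes, had 41.7 and 39.1 CPM in neurons and 110 and 100 in precursors, and the alpha cluster, over 3 genes, 4.52 and 4.35 in neurons. A UMI of at least 1 beta gene was found in 47.7% and 49.5% of neurons and of at least 2 beta genes in 17.2% and 16.5%, at a median of 7709 and 8126 UMIs per cell. In mature oligodendrocytes, at a median of 4170 and 4643 UMIs, 1 or more beta genes were found in 8.87% and 12.1%. A share of cells moves with depth, so no order between the classes is read from these shares. The most beta genes seen in 1 neuron were 7 and 8.

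Inhibitory neurons, which release GABA and were taken as neurons with a UMI of Slc32a1 and none of Slc17a6, were compared with excitatory neurons, the reverse. There were 984 and 1110 inhibitory and 711 and 785 excitatory neurons. Of 48 members tested, 11 differed, 3 higher and 8 lower in inhibitory neurons (22.9%). The test was edgeR's quasi-likelihood test, adjusted over all genes by Benjamini-Hochberg. Of all 13231 genes tested, 21.3% were called, 9.55% higher and 11.7% lower, so the members' share was near the background. Each test rests on 4 sums of counts, with 1 residual degree of freedom. With library as a block, its spread is how far the group difference varies between the 2 libraries, drawn towards a spread estimated across genes. The weight of that shared spread was 15.6 degrees of freedom here. In the tests below it was 16.8 for Sst-high, 66.9 for Pmch-high and 144 for Hcrt-high neurons. It had no finite value for Trh-high, Gal-high and Hcrt-high against Pmch-high neurons. A small p-value thus rests mainly on the shared spread and counting error, not on a member's own variation between libraries. All 11 members were non-clustered and moved the same way in both libraries. DESeq2 called 3 of them (Pcdh11x, Pcdh8 and Pcdh17), and 5 held with cells thinned to 3000 UMIs (Pcdh11x, Pcdh7, Pcdh10, Pcdh17 and Cdh23). The median size of a log2 difference was 0.21 over the non-clustered members tested and 0.15 over all genes.

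Most of these differences were small. Pcdh11x was at 84.4 and 93.1 CPM in inhibitory and 150 and 134 in excitatory neurons, and the groups did not overlap (log2 difference -0.71 ± 0.06 SE, edgeR adjusted p = 2.5e-07). Here and below, a lack of overlap is between 2 values per group, which is easily met. Its share over all genes was not counted, so it describes the values only and is not read as support. Cdh9, a type II cadherin known from hippocampal synapse formation, was at 6.21 and 5.72 against 11.99 and 12.8 CPM (-1.10 ± 0.18, adjusted p = 0.0002). Pcdh18, a delta-2 protocadherin, went the other way, with 29.5 and 26.1 against 17.8 and 17.7 CPM (0.60 ± 0.11, adjusted p = 0.00079). So did Pcdh7, with 207 and 228 against 184 and 183 CPM (0.21 ± 0.05, adjusted p = 0.0033). Cdh23, the partner of Pcdh15 in hair cells, was higher at 3.80 and 4.98 against 1.32 and 2.23 CPM (1.25 ± 0.32, adjusted p = 0.0082), from 103 UMIs in all. Pcdh17, Cdh22, Pcdh15 and Pcdh10 were lower by 0.20 to 0.33 on the log2 scale.

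Pcdh8 and Cdh20 were lower in inhibitory neurons only as long as the peptide neurons of the region were among the excitatory ones. Pcdh8 had 38.3 and 38.9 CPM in inhibitory and 86.0 and 62.7 in excitatory neurons (-0.97 ± 0.09, edgeR adjusted p = 5.4e-07). Without Hcrt-high and Pmch-high neurons it was higher in inhibitory neurons, by 0.43 (adjusted p = 0.0039). Cdh20 went from -0.67 ± 0.14 (adjusted p = 0.0026) to 0.19 (adjusted p = 0.6). In that fit Cdh4 was lower in inhibitory neurons by -0.56 (adjusted p = 7.3e-06) and Pcdh9 higher by 0.34 (adjusted p = 1.8e-06), neither of which was called with all neurons. Astrocyte markers summed to 509 and 488 CPM in the inhibitory and 290 and 315 in the excitatory neurons, with none of 7 at 0. Their part in these differences was not tested.

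**Figure D2:**
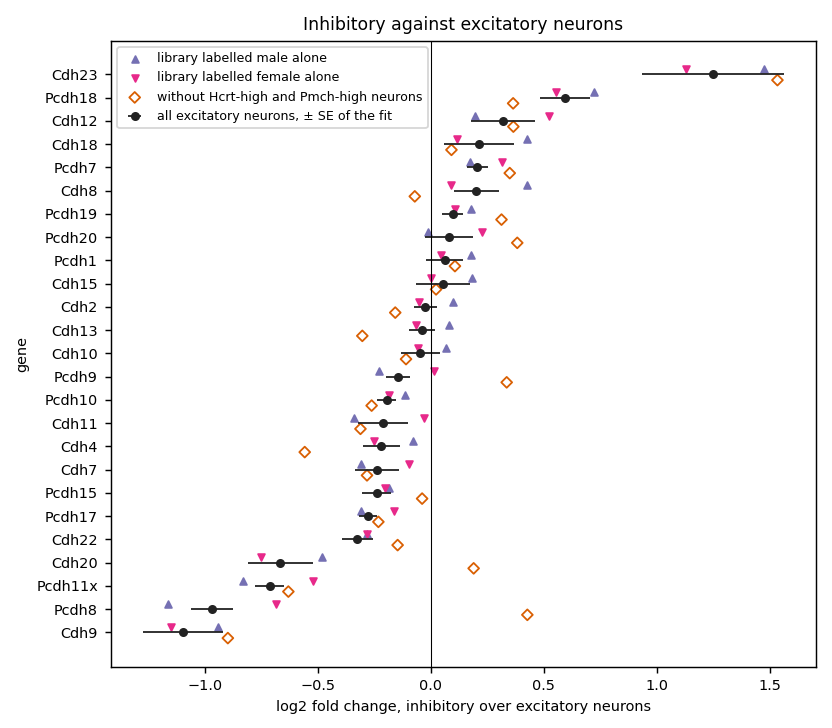
Log2 fold change of inhibitory over excitatory neurons for the 25 non-clustered members tested, with the SE of the fit (black), each library alone (triangles) and the fit without Hcrt-high and Pmch-high neurons (open diamonds). Pcdh8 and Cdh20 move from below 0 to above it when those neurons are left out, and Pcdh11x and Cdh9 stay below 0.

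Hcrt-high neurons, which make orexin, the peptide of wakefulness, differed from other excitatory neurons in both directions, with some type II cadherins high and others nearly absent. They were neurons with 0.3% or more of their UMIs from Hcrt, 83 in each library. They were set against 600 and 688 excitatory neurons below that limit for Hcrt and Pmch. Hcrt-high cells were not sorted by Slc17a6 or Slc32a1, so the groups were chosen by unlike rules. Of 39 members tested, 20 were called (51.3%), 9 higher and 11 lower, where edgeR called 41.1% of 11830 genes, 21.4% higher and 19.7% lower. The median size of a log2 difference was 0.76 over members and 0.40 over all genes. Hcrt-high cells were deeper, at a median of 16101 and 18593 UMIs against 7806 and 8097, and 13 of the 20 calls held with every cell thinned to 3000 UMIs. Without TMM scaling, which shifts the median log2 difference of all genes from -0.01 to -0.26, the calls were 8 higher and 15 lower.

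Among the type II cadherins, Cdh20 had 63.2 and 62.0 CPM in Hcrt-high and 9.84 and 9.45 in other excitatory neurons, with no overlap (log2 difference 2.94 ± 0.20, edgeR adjusted p = 1.6e-29). It was found in 54.2% and 53.0% of Hcrt-high cells. Cdh22, which is strong in brain, had 131 and 126 CPM against 57.8 and 56.7 (1.42 ± 0.12), and Cdh9 had 21.1 and 22.1 against 11.1 and 11.2 (1.21 ± 0.27). Other type II genes went the opposite way, almost to absence. Cdh8 had 3 UMIs in all Hcrt-high neurons and 395 in the other excitatory ones, a ratio of 30.7 (10.4 to 150). Cdh11 was at 3.51 and 0.738 CPM against 27.9 and 30.2 (-3.59 ± 0.42, adjusted p = 3e-13). Cdh7 and Cdh12 were also lower, by -1.38 and -1.78. Thus 7 of the 9 type II genes tested were called, 3 higher and 4 lower, beside 41.1% of all genes (21.4% higher and 19.7% lower).

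Of the 3 type I genes tested, 2 were called, both lower, beside 19.7% of all genes called lower. Cdh4 had 3.51 and 8.12 CPM against 55.2 and 63.0 (-3.05 ± 0.27, edgeR adjusted p = 4.9e-20), and Cdh2 had 71.9 and 87.8 against 168 and 178 (-0.86 ± 0.12). T-cadherin, Cdh13, was at 8.77 and 14.02 against 119 and 114 CPM (-3.07 ± 0.20, adjusted p = 6.2e-30). No Hcrt-high value of these 3 genes reached the other excitatory neurons. The share of all genes without overlap was not counted, so nothing is read from this. Of the hair-cell pair, Pcdh15 was higher, with 169 and 150 CPM against 59.1 and 67.8 (1.57 ± 0.12, adjusted p = 6.2e-26), and so was Cdh23, with 3.51 and 5.90 against 0.820 and 2.06 (1.92 ± 0.66, adjusted p = 0.014), from 28 UMIs in all. Among delta-protocadherins, Pcdh19 was higher at 215 and 232 CPM against 124 and 139 (1.02 ± 0.11), and Pcdh10 lower at 102 and 93.7 against 249 and 253 (-1.11 ± 0.12). Pcdh8 and Pcdh20 were also called higher, by 0.60 and 0.93, and Pcdh8 lost its call without TMM (adjusted p = 0.11).

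Pmch-high neurons, which make melanin-concentrating hormone, had a different set. There were 85 and 61 of them, taken by the same limit for Pmch and likewise not sorted by transporter gene. They were compared with the same other excitatory neurons, so the comparisons share controls. Of 40 members tested, 21 were called (52.5%), 13 higher and 8 lower, beside 37.7% of 11793 genes, 19.8% higher and 17.9% lower. Depth again differed, with a median of 14237 and 12947 UMIs per Pmch-high cell, and 7 of the 21 calls held after thinning: Pcdh8, Pcdh9, Pcdh7, Pcdh17, Pcdh11x, Cdh4 and Pcdh15. Without TMM, which here shifts the median of all genes from -0.03 to -0.29, the calls were 9 higher and 11 lower.

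Of the 9 delta-protocadherins 7 were higher, 1 was lower and Pcdh1 was not called, beside 19.8% of all genes higher and 17.9% lower. After thinning, 3 delta-1 and 2 delta-2 calls held. Pcdh8 reached 417 and 398 CPM in Pmch-high neurons, against 26.1 and 30.7 in other excitatory neurons (log2 difference 4.10 ± 0.10, edgeR adjusted p = 8e-46). It was found in 72.9% and 62.3% of Pmch-high cells, in 17.5% and 19.0% of other excitatory neurons, and in 2.14% and 1.85% of mature oligodendrocytes. Pcdh9 had 636 and 596 CPM against 153 and 181 (2.15 ± 0.08, adjusted p = 7.4e-34), and Pcdh7 had 309 and 355 against 167 and 175 (1.22 ± 0.09, adjusted p = 1.5e-19). Pcdh17, the highest member in absolute counts, had 768 and 803 against 528 and 521 (0.84 ± 0.06). None of these 4 genes overlapped between the groups. The share of all genes without overlap was not counted, so nothing is read from this. Pcdh11x was higher by 0.91, but unevenly, with 262 and 167 CPM against 134 and 141. Pcdh10 and Pcdh19 were higher by 0.48 and 0.43, and Pcdh19 lost its call without TMM (adjusted p = 0.18). Pcdh18 was the lower one, at 2.09 and 4.71 against 22.8 and 20.4 CPM (-2.48 ± 0.40, adjusted p = 5.3e-07).

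The cadherins of Pmch-high neurons were mixed. Cdh4 was low, at 2.79 and 8.48 CPM against 55.2 and 63.0 (-3.21 ± 0.29, edgeR adjusted p = 1.5e-15), as it was in Hcrt-high neurons. Cdh12 was higher, with 26.5 and 21.7 against 13.95 and 12.5 (1.13 ± 0.25, adjusted p = 0.00019), and Cdh11 was higher by 0.86. Cdh22 was lower, with 21.6 and 28.3 against 57.8 and 56.7 (-0.96 ± 0.19, adjusted p = 2.4e-05). Pcdh15 was at 3.49 and 10.4 against 59.1 and 67.8 CPM (-3.02 ± 0.27, adjusted p = 1.2e-15), and Pcdh20 at 27.9 and 42.4 against 19.5 and 21.3 (1.03 ± 0.21, adjusted p = 4.3e-05). The type II genes Cdh8 and Cdh10 were lower by -0.71 and -0.52. Of 9 type II genes tested in Pmch-high neurons, edgeR called 6, 3 higher and 3 lower. DESeq2 called 0 of them, and 0 kept the call after thinning, so these type II differences rest on edgeR at full depth.

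**Figure D3:**
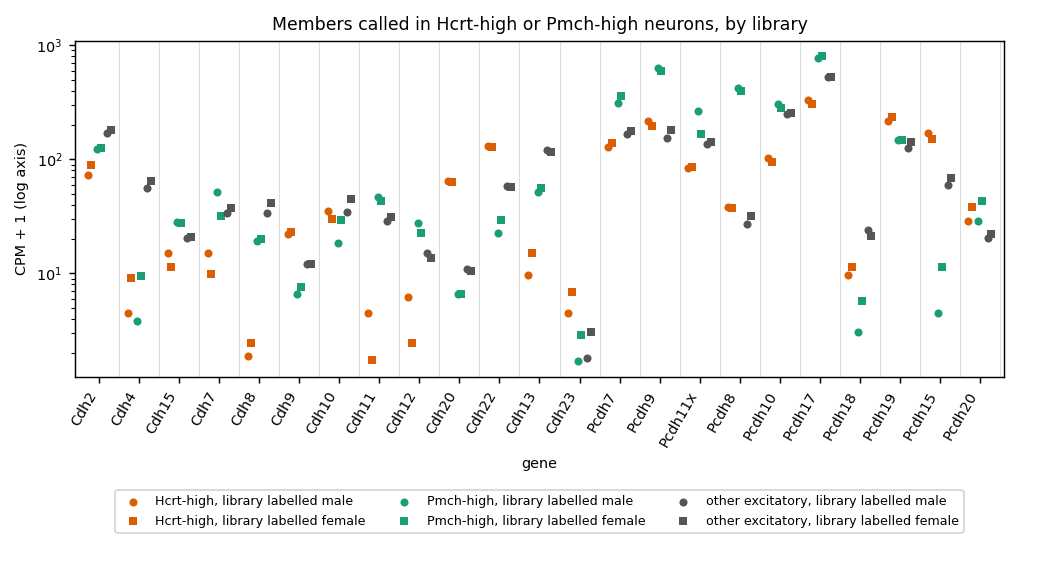
CPM + 1 on a log axis for the 23 non-clustered members called in Hcrt-high or Pmch-high neurons, with 1 point per library (circle, labelled male; square, labelled female) for Hcrt-high, Pmch-high and other excitatory neurons. Cdh20 and Cdh22 are highest in Hcrt-high, Pcdh8 and Pcdh9 in Pmch-high neurons, and Cdh4 is lowest in both.

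Set directly against each other, a comparison added after the values above were seen, Hcrt-high and Pmch-high neurons differed in 19 of 29 members tested (65.5%), 6 higher and 13 lower in Hcrt-high neurons, beside 34% of 9683 genes in the same test by edgeR, 16.2% higher and 17.8% lower. Pcdh15 was 4.60 ± 0.24 higher on the log2 scale in Hcrt-high neurons (adjusted p = 4.6e-81), Cdh20 3.44 ± 0.30 (adjusted p = 1.5e-28) and Cdh22 2.37 ± 0.18 (adjusted p = 7.6e-36). Pcdh8 was lower by -3.49 ± 0.15 (adjusted p = 2e-116), Cdh11 by -4.39 ± 0.42 (adjusted p = 9e-24), Cdh12 by -2.86 ± 0.46 and Cdh13 by -2.21 ± 0.27. Cdh8, low in Hcrt-high neurons, had 3 against 46 UMIs, a ratio of 15.3 (4.93 to 77.1). All 19 had the same direction in both libraries. The p-values of this comparison rest on the spread shared across genes and on counting error.

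The partners of these proteins were a list of 55 genes: catenins and junction proteins, shedding enzymes, the WAVE complex, other members of the cadherin superfamily and factors of clustered protocadherin choice. The limit set for naming a partner was a call with 2-fold or more between inhibitory and excitatory neurons, and 0 met it. Those named here are examples picked from the calls. In Hcrt-high neurons 11 of 47 tested were higher and 10 lower (44.7% called), near the 41.1% over all genes (21.4% higher and 19.7% lower). Clstn2, a calsyntenin, was at 147 and 150 CPM against 61.7 and 65.1 (1.48 ± 0.12, edgeR adjusted p = 9e-24), and Clstn1 at 175 and 213 against 596 and 539 (-1.29 ± 0.12, adjusted p = 3.3e-19). In Pmch-high neurons 15 were higher and 8 lower of 47 (48.9%), beside 37.7% of all genes (19.8% higher and 17.9% lower). Ctnnb1, beta-catenin, had 278 and 224 against 169 and 159 CPM (0.88 ± 0.09, adjusted p = 1.4e-12). Among the 13 catenins and junction proteins tested there, 2 were higher and 2 lower (30.8% called). Ret, a receptor kinase with cadherin-like repeats, had 67.7 and 86.7 against 23.6 and 20.4 (2.06 ± 0.17, adjusted p = 5.5e-17). Pvrl3, the junction protein nectin-3, was higher in Hcrt-high by 1.21 and lower in Pmch-high neurons by -2.17, and it differed directly by 3.35 ± 0.33 (adjusted p = 3e-22). Of the WAVE complex, 3 and 5 of 8 genes were called higher in Hcrt-high and Pmch-high neurons and none lower, by at most 0.57 on the log2 scale, beside 21.4% and 19.8% of all genes called higher. Taken library by library without TMM, 1 and 3 of these were higher in both libraries. DESeq2 called 0 and 1 of them, thinning kept 0 and 1, and without TMM 0 and 2 kept a call. Without TMM the partner calls were 5 higher and 16 lower in Hcrt-high and 8 and 15 in Pmch-high neurons. Between inhibitory and excitatory neurons 6 of 50 partners were higher and 4 lower, 20% called beside 21.3% of all genes, and without TMM 8 were higher and 1 lower.

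The smaller peptide groups gave few calls. Trh-high excitatory neurons, 21 and 14 cells with thyrotropin-releasing hormone, had 5 of 39 members called, 4 higher and 1 lower, beside 6.17% of 11538 genes (2.72% higher and 3.45% lower). Cdh4 had 192 and 231 CPM in them against 48.1 and 58.7 (1.94 ± 0.22, edgeR adjusted p = 1.5e-15), the reverse of its low level in Hcrt-high and Pmch-high neurons. Cdh2, Pcdh9 and Pcdh10 were higher by 0.90, 0.76 and 0.67. Pcdh20 had 0 UMIs against 219, at least 2.74-fold lower when 3 counts over the group are taken as the floor. Gal-high inhibitory neurons, 20 and 13 cells with galanin, had 1 of 46 members called, beside 0.218% of 11910 genes (0.109% higher): Pcdh10, at 415 and 409 CPM against 217 and 198 (0.91 ± 0.23, adjusted p = 0.026). Sst-high inhibitory neurons, 34 and 35 cells with somatostatin, had 2 of 44 called, beside 1.3% of 12121 genes (0.858% higher and 0.446% lower). These were Pcdh8 at 84.0 and 96.7 against 36.7 and 37.4 CPM (1.29 ± 0.25, adjusted p = 0.012) and Cdh13 at 45.8 and 37.8 against 100 and 91.8 (-1.19 ± 0.26, adjusted p = 0.026). DESeq2 called 1, 0 and 0 members in the 3 groups. The 1 was Cdh4.

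Few clustered protocadherins were called. Their counts were low, with at most 19.6 and 15.6 CPM in neurons (Pcdhgc4), which limits what a test can call. Between inhibitory and excitatory neurons the median size of their log2 differences was 0.156, beside 0.152 over all genes. The lack of calls was thus not read as constant levels. With edgeR, 0 of 23 tested were called between inhibitory and excitatory neurons (1 at an unadjusted p under 0.05, 0 by DESeq2), beside 21.3% of all genes, and 0 of 14 in Hcrt-high neurons (1 and 0), beside 41.1%. In Pmch-high neurons 2 of 16 were called (4 unadjusted, 0 by DESeq2), beside 37.7% of all genes: Pcdhga12, at 6.97 and 5.65 against 14.97 and 15.8 CPM, and Pcdhb22, whose direction differed between the libraries. In the direct comparison 0 of 6 were called (1 and 0), beside 34%. In Trh-high, Gal-high and Sst-high neurons 0 of 15, 0 of 21 and 0 of 19 were called with edgeR, with 0 at an unadjusted p under 0.05 and 0 by DESeq2. The share over all genes was itself low there, at 6.17%, 0.218% and 1.3%. Without TMM, 2 were called lower in Hcrt-high neurons, and in Pmch-high neurons 0 were higher and 3 lower in place of 1 and 1.

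Across finer neuron types, some members peaked in single subtypes and others in several. Inhibitory and excitatory neurons were clustered again, without the members, and 37 subtypes with 10 or more cells per library were used. Their values describe the same cells that were clustered and have no test. Pcdh8 was 470 and 468 CPM in the excitatory subtype led by Pmch, Cartpt and Tacr3 (exc6) and had a median of 30.6 CPM over subtypes. Next came the inhibitory subtype led by Ptk2b and Arpp21 (inh17), with 113 and 88.7 CPM, well below it. Cdh20 was at 60.3 and 61.1 CPM in the subtype led by Hcrt (exc5). It was also present in a Zic1 and Zic4 excitatory subtype (exc10), at 46.5 and 64.7, and in a Bhlhe22 and Lhx6 inhibitory subtype (inh16), at 72.0 and 34.4. High Cdh20 was thus seen outside the Hcrt subtype as well, and exc5 was the highest subtype in neither library, only by the mean.

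The excitatory subtype led by Lmo4, Sox5 and Stk26 (exc14) was the richest in several cadherins. It had the highest Cdh4, 219 and 210 CPM against a median of 36.8 over subtypes, the highest Cdh8, 101 and 111 against 29.2, and the highest Pcdh11x, 489 and 677 against 104. It also had the lowest Pcdh19, at 8.74 and 19.1 CPM against a median of 139. Cdh4 was high as well in the subtype led by Trh and Pvalb (exc19), at 147 and 195 CPM, and in one led by Nrgn and Fezf1 (exc7), at 131 and 136. Among inhibitory subtypes, the one led by Cartpt and Nts (inh3) had most Pcdh10, 548 and 446 CPM, the one led by Cd24a and Foxp2 (inh13) most Pcdh20, 69.0 and 104, and the one led by Tac2 and Lamp5 (inh18) most Cdh7, 87.4 and 85.6. Pcdh18 was highest there by the mean only, at 71.8 and 57.1 CPM, with 54.8 and 58.2 in inh2. Summed over a subfamily, delta-1 levels ran from 219 to 1282 CPM across subtypes, delta-2 from 535 to 1707 and the beta cluster from 47.3 to 161.

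**Figure D4:**
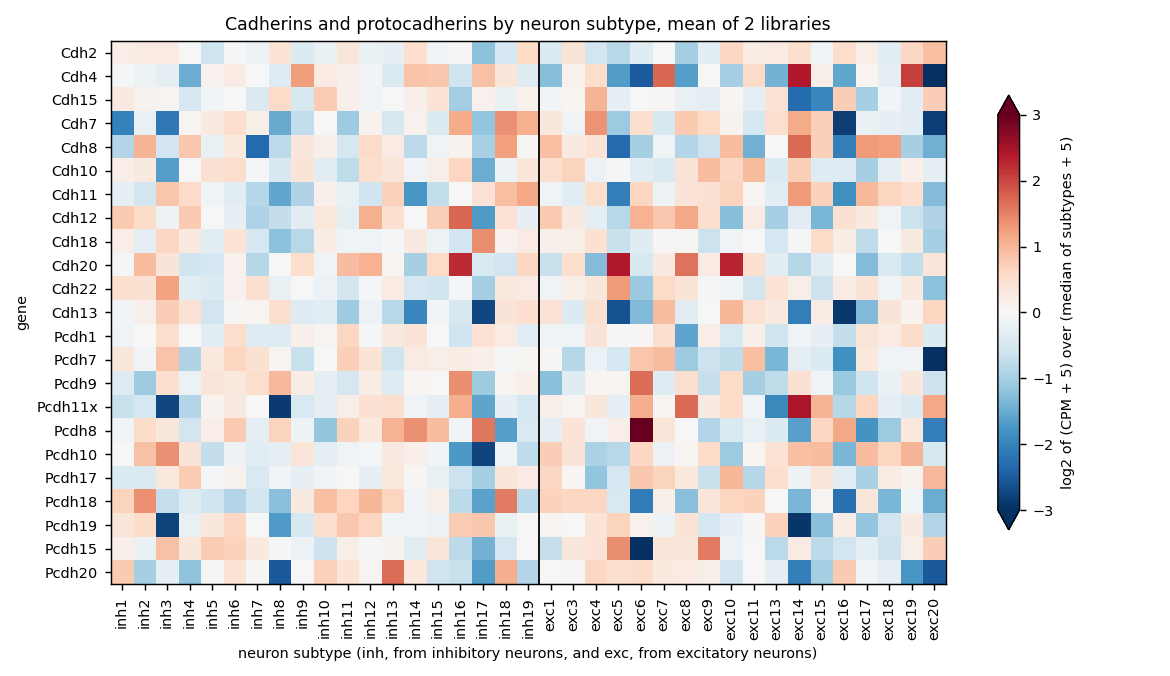
Level of 23 non-clustered members with 300 or more UMIs (rows) in 37 neuron subtypes (columns; inhibitory left, excitatory right of the line), as log2 of (CPM + 5) over the median of subtypes + 5, with the colour scale ending at 3 in either direction. Pcdh8 in exc6, and Cdh4 and Pcdh11x in exc14 stand out, and Cdh20 is high in exc5, exc10 and inh16.

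The subtype pattern of the non-clustered members was similar in both libraries. Over 37 subtypes, Pearson's r between the libraries had a median of 0.782 over these 23 members, from 0.235 for Cdh18 to 0.927 for Pcdh19. For the 5 clustered members with 300 or more UMIs it had a median of 0.201, from 0.0485 for Pcdhgc4 to 0.414 for Pcdhb17. Depth differs between these sets, with 376 to 15139 UMIs per non-clustered and 301 to 564 per clustered member, and r falls with counting error, so the sets were not compared by a test. The subtypes share libraries and sequencing depth, and r is a description. The highest subtype was the same in both libraries for 10 of the 23 and for 0 of the 5.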

How the data were processed

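Single cells of the lateral hypothalamic area were counted in 2 pooled libraries. The authors deposited raw UMI counts by gene and barcode for each library. Cell Ranger 2.2.0 and the build GRCm38 (mm10) are named in the submitters' processing notes. Which annotation release, strand setting or treatment of free RNA was used is not given in the sources used here. GENCODE M21 held 28339 of the 28692 gene identifiers and all 62 members. The gene listed under the symbol Pcdhga8 that M21 names Pcdhgc4 is called Pcdhgc4, and 2 genes carry the symbol Pcdha11. They were told apart by identifier.

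Cells with at least 500 genes and at most 20% mitochondrial UMIs were kept, and those with the highest Scrublet scores were removed at 0.8% per 1000 barcodes, leaving 3181 and 3515. Scanpy 1.11.5 clustered them on 2000 variable genes without the members, with 30 components, 15 neighbours and Leiden resolution 1. Clusters were named from fixed markers, of which at least 3 had to be found in 25% of cells. These naming limits were adjusted after the clusters were first seen, when a Trh neuron cluster had stayed unnamed, and 2 small clusters remain unnamed. Members, partner lists and comparisons were chosen with earlier results of these data known.

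UMI counts were summed per library and group, over at least 10 cells each, and tested with edgeR 4.0.16 (quasi-likelihood, filterByExpr, TMM, library as a block, 2-sided), with Benjamini-Hochberg adjustment over all genes tested and a threshold of 0.05. The library is a block because both groups of cells come from each library. With 1 residual degree of freedom the tests draw mostly on a spread estimated across genes. Named in a comparison were up to 8 called members in each direction between inhibitory and excitatory neurons and up to 5 elsewhere, by size of change among those with 1 direction in both libraries. Others are named only with their size, or as a count. Intervals of a level are exact Poisson 95% intervals, and those of a ratio are turned from exact binomial 95% intervals of the share of counts. Both cover counting error only. A fold against 0 UMIs is a bound against 3 counts. DESeq2 1.42.0, no TMM, no low-count filter, stricter cells (1000 genes, 10%), no doublet removal, thinning to 3000 UMIs, no block, other gates and 1 library at a time were tried as alternatives. Sums were also simulated with 50 genes changed at each fold. The inhibitory against excitatory test (13177 genes) called 72% of 1.5-fold and 98% of 2-fold changes, with 4 false calls. The Sst-high test (12136 genes) called 10% and 66%, with 0. Only genes well counted in the smallest sum were changed, with a common spread for all genes. These shares therefore do not hold for members with low counts.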

Additional observations from a re-analysis of the deposited data

Results flagged for a closer look

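Pcdhb22 and Cdh7 were the only called members whose change in Pmch-high against other excitatory neurons went in opposite directions in the 2 libraries. Pcdhb22 had a log2 fold change of -0.138 in the library labelled male and 1.22 in that labelled female, from CPM of 9.07 and 19.8 in Pmch-high and 10.3 and 8.59 in other excitatory neurons. Cdh7 had 0.61 in the library labelled male and -0.217 in that labelled female, from 50.2 and 31.1 CPM against 33.0 and 36.6. With 1 library per label the difference itself was not tested. Both members were called higher by edgeR over both libraries (adjusted p = 0.049 and 0.024), and neither by DESeq2.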

How the results depend on the processing

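With DESeq2, 3 members were called between inhibitory and excitatory neurons in place of 11, 12 in Hcrt-high neurons in place of 20, 10 in Pmch-high in place of 21, 1 in Trh-high in place of 5, 0 in Gal-high in place of 1 and 0 in Sst-high in place of 2. With cells thinned to 3000 UMIs these were 6, 13, 7, 1, 0 and 0, and 11 in place of 19 for Hcrt-high against Pmch-high neurons. Fewer members could be tested after thinning. Without the replicate block 5 were called between inhibitory and excitatory neurons and 2 in Gal-high neurons, and no filter on low counts left 0 in Gal-high neurons. Members at 4 times the median subtype in each library went from 3 to 5 with members among the variable genes. The cause of these changes was not tested. Without Hcrt-high and Pmch-high neurons Pcdh8 turned to 0.43 and Cdh20 to 0.19. Of 379 alternatives for single members, 321 kept direction and call, 56 lost the call and 2 turned direction. With 1 library at a time, 41 of 98 values moved by more than their spread. No test was possible, and the direction was fixed by naming only members with 1 direction in both libraries.

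Over all genes DESeq2 called 541 in place of 2817 between inhibitory and excitatory, 1566 in place of 4862 in Hcrt-high, 1383 in place of 4447 in Pmch-high, 765 in place of 3297 in the direct comparison, 181 in place of 712 in Trh-high, 4 in place of 26 in Gal-high and 54 in place of 158 in Sst-high neurons. Thinned cells gave 1082, 1538, 935, 759, 144, 9 and 5. Between inhibitory and excitatory neurons 890 were called without the block and 1669 without peptide neurons, and in Sst-high neurons 296 with no filter and 68 with stricter cells. Not run for want of 10 cells were the 1% limit for Trh, Gal and Sst and the stricter filter for Trh and Gal.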
